A study of Homo sapiens with 12 samples.

Results

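The genes described here write, maintain and remove DNA methylation: the methyltransferase family (DNMT1, DNMT3A, DNMT3B and its catalytically inactive relative DNMT3L), the maintenance cofactor UHRF1, the TET dioxygenases (TET1, TET2 and TET3) and the thymine DNA glycosylase TDG. They were chosen by name as the rows of the gene count table that carry these symbols, and all 9 were present among its 27130 genes. The study made poly(A) RNA-seq libraries from H1 (WA01), a human embryonic stem cell line long established in culture, and asked what ZNF263, a zinc finger transcription factor, and its cofactor ZIC2 do in pluripotent cells. There were 12 libraries, 3 in each of 4 groups. The KO group carried a homozygous knockout of ZNF263. The KO+ZIC2 group was the same homozygous knockout with overexpression of ZIC2. The OE group overexpressed ZNF263, and the WT group was wild type. The library names of the KO and WT groups hold the tag vec, and those of the KO and KO+ZIC2 groups share a second tag that the OE and WT names lack. A difference between cell lines or clones therefore cannot be told apart from loss of ZNF263 wherever a knockout group is set against WT or OE cells. The kind of edit, the number of knockout clones, the promoter of either transgene and whether replicate libraries stem from separate cultures are not given in the sources used here, so the p-values measure only the spread between these libraries, which may be technical.

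In mammals, DNMT3A and DNMT3B place methyl groups on unmethylated CpG sites, DNMT3L stimulates both without having activity of its own, and DNMT1 copies the pattern to the new strand after replication, guided by UHRF1, which binds hemimethylated CpG. TET enzymes oxidise 5-methylcytosine to 5-hydroxymethylcytosine and beyond, and TDG excises the most oxidised forms so that base excision repair can restore an unmodified cytosine. Human embryonic stem cells in primed culture are known for high DNMT3B and for high TET1 relative to the other TET genes. The deposited data measure transcripts of these enzymes, not methylation itself.

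Promoter entries of 8 members were found in the RefSeq promoter table (GRCh38.p14), and DNMT3L was not matched. One window was read for each gene, the 250 bases before the outermost start listed for it. The listed starts were not matched to the first base of each gene in the count table, which is on hg19. A window can therefore lie inside the counted gene, as for DNMT3B and UHRF1, and need not be the promoter in use. DNMT3A has 6 listed starts, TET1 and UHRF1 have 3 each and TET2 and TET3 have 2 each, and their other starts were not searched. The sequences are those of 4 members: DNMT3B, TET1 and UHRF1, which are among the members whose transcripts differed between groups, and DNMT1, the other member whose window holds the ZNF263 letters. TDG, TET2 and DNMT3A also differed between some groups, and their windows, which hold no match, are not shown. Capitals mark GGGAGGA or its opposite strand TCCTCCC, letters from the purine-rich core described for ZNF263. The DNMT3B window is chr20:32779602-32779851 on the plus strand, the DNMT1 window is chr19:10194954-10195203 on the minus strand, the TET1 window is chr10:68560087-68560336 on the plus strand, and the UHRF1 window is chr19:4909251-4909500 on the plus strand.
DNMT3B: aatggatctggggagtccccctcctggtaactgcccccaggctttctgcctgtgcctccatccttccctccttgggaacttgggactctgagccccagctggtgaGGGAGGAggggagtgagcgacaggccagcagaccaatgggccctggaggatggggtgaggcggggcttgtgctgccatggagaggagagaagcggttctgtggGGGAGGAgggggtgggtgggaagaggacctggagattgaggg
DNMT1: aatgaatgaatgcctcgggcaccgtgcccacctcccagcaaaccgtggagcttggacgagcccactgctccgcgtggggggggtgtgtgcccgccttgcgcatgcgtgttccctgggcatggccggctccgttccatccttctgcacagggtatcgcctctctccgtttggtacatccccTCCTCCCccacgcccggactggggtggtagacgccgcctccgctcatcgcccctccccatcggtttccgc
TET1: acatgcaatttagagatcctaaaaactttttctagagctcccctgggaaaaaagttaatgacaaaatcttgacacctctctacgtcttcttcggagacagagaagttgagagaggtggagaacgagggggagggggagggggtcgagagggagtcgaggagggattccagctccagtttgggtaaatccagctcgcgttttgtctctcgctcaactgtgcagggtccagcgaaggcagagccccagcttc
UHRF1: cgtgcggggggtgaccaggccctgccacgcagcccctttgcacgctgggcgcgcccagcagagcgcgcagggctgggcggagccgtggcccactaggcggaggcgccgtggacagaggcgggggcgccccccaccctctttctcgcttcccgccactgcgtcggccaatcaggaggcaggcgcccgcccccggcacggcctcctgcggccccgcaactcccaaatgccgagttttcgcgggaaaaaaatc
The DNMT3B window held 2 matches, 145 and 42 bases before its listed start, and the DNMT1 window held 1 match on the opposite strand, 70 bases before its listed start. As the DNMT3B window lies inside the counted gene, its matches and CpG content need not be those of the promoter in use. The other 6 windows held none, while 15.7% of 27324 windows of this length, chosen the same way with 1 per gene, held at least 1. The letters CAGCAGG or CCTGCTG, from the core described for ZIC proteins, were in 8.39% of all windows and in 0 of the 8 members. Neither motif contains the other, though a match of one can share end bases with a match of the other. The windows also differed in CpG content around a median of 10 CpG over all windows: 3 in DNMT3B, 9 in TET1, 10 in TET2, 12 in DNMT3A, 21 in DNMT1, 22 in TDG, 28 in UHRF1 and 37 in TET3. A match of letters is a description of the window, and no binding or methylation was measured in these libraries.

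Total counts lay between 17175183 and 21804410 in 11 libraries and reached 43464609 in KO replicate 1. ZNF263 transcript was still counted in the KO group at 31.1 ± 0.128 CPM (counts scaled to the size of the library) and in the KO+ZIC2 group at 32.3 ± 3.15 CPM, with 239.6 ± 18.0 CPM in the OE group, against 39.2 ± 1.35 CPM in the WT group (SD, n = 3 each). It fell by 0.33 on the log2 scale in KO cells against WT (adjusted p 0.000302), and a count over the whole gene does not show whether the transcript still encodes the protein. ZIC2 stood at 156 ± 3.81 CPM in KO, 2040 ± 175 CPM in KO+ZIC2 and 212 ± 4.67 CPM in OE libraries, against 208.5 ± 3.74 CPM in WT libraries. A set of 15 markers of human embryonic stem cells summed to 11028 to 11193 CPM in KO, 10513 to 10752 CPM in KO+ZIC2 and 11445 to 11630 CPM in OE libraries, against 11282 to 11534 CPM in WT libraries, and none of them averaged under 1 CPM in any group. The sums hide shifts both ways. At an adjusted p under 0.05, 4 markers were higher and 5 lower in KO cells against WT, where 38.6% of all genes tested passed. In KO+ZIC2 cells against KO, 0 were higher and 5 lower, beside 8.34% of all genes. LIN28A averaged 2489 CPM in KO and 2161 CPM in WT libraries, and L1TD1 averaged 1260 and 1515 CPM. Of 8 neuroectoderm markers, 4 averaged under 1 CPM in KO libraries and 5 in WT libraries, yet their sum was higher in KO (449 to 495 CPM) and KO+ZIC2 (467 to 522 CPM) than in OE (350 to 357 CPM) and WT libraries (353 to 369 CPM). Most of that sum was NES, at 465 CPM in KO and 349 CPM in WT libraries, while DCX averaged 4.96 CPM in KO and 5.36 CPM in WT libraries. Endoderm markers were low but summed to more in the knockout groups, at 8.95 to 10.1 CPM in KO, 9.19 to 10.2 CPM in KO+ZIC2 and 4.16 to 5.51 CPM in OE libraries, against 6.13 to 7.28 CPM in WT libraries. Most of that sum was FOXA2, at 5.41 CPM in KO and 4.64 CPM in WT libraries, and CXCR4, at 3.25 and 1.58 CPM. Only 2 of the 7 had enough counts to test, and 1 was higher in KO cells against WT at an adjusted p under 0.05. Trophoblast markers summed to 7.53 to 9.51 CPM in KO, 10.2 to 10.7 CPM in KO+ZIC2 and 8.24 to 8.71 CPM in OE libraries, against 6.14 to 6.61 CPM in WT libraries. In OE libraries KRT7 averaged 7.18 CPM, against 4.90 CPM in WT libraries, while GATA2 averaged 0.763 CPM, against 0.944 CPM. Mesoderm markers summed to 3.50 to 4.53 CPM in KO, 3.70 to 5.57 CPM in KO+ZIC2 and 2.45 to 3.90 CPM in OE libraries, against 2.93 to 3.24 CPM in WT libraries. Of these, 5 of 7 endoderm, 6 to 8 of 9 trophoblast and 6 or 7 of 8 mesoderm markers averaged under 1 CPM in each group. A set of 9 fibroblast or feeder markers, of which 3 averaged under 1 CPM in every group, summed to 558 to 603 CPM in KO, 642 to 691 CPM in KO+ZIC2 and 512 to 523 CPM in OE libraries, against 508 to 521 CPM in WT libraries. Those 3 were COL3A1, LUM and DCN. Most of the sum in WT libraries was THY1, so the sum need not stem from fibroblasts or feeder cells. Members of the set moved in different directions: COL1A1 averaged 211 CPM in KO+ZIC2 libraries, against 69.2 CPM in WT libraries, and THY1 averaged 301 CPM, against 337 CPM. Mitochondrial genes took 1.11% to 1.16% of counts in KO, 0.963% to 1.13% in KO+ZIC2 and 1.36% to 1.44% in OE libraries, against 1.36% to 1.40% in WT libraries. In bulk RNA, fewer cells of a type and less RNA per cell cannot be told apart, and the part of these shifts in the results below was not tested. Every library also has its own trend with gene length, measured as the rank correlation across genes between gene length and the library's deviation from its group mean. It was most negative in KO replicate 2 (-0.41), WT replicate 1 (-0.29) and KO+ZIC2 replicate 2 (-0.22), and it ran up to 0.38 in KO replicate 1; genes are not independent replicates.

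Per kilobase of exon, so that genes can be compared, DNMT3B led by far in every group. It stood at 515 ± 23.6 CPM per kb in KO, 485 ± 19.3 in KO+ZIC2 and 523 ± 3.40 in OE libraries, against 466 ± 11.1 CPM per kb in WT libraries (SD, n = 3 each). In WT cells the level per length then ran down through DNMT1 (55.2 ± 2.23 CPM per kb), DNMT3A (40.9 ± 0.719), TDG (32.5 ± 0.860), TET1 (15.5 ± 0.757), UHRF1 (14.4 ± 0.246), TET3 (5.69 ± 0.455), TET2 (0.258 ± 0.0315) and DNMT3L (0.0804 ± 0.0722). The libraries of neighbouring genes in that order did not overlap in WT cells. The order was the same in OE cells, where the TET1 libraries (15.3 to 15.9 CPM per kb) and the UHRF1 libraries (13.5 to 14.2 CPM per kb) again did not overlap. TET1 and UHRF1 were the pair that changed places: in KO+ZIC2 cells TET1 stood at 11.5 ± 0.775 CPM per kb and UHRF1 at 16.8 ± 0.886 CPM per kb, and in KO cells the pair overlapped (10.6 to 14.3 and 13.5 to 14.5 CPM per kb). No other neighbours changed places in any group.

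**Figure D1:**
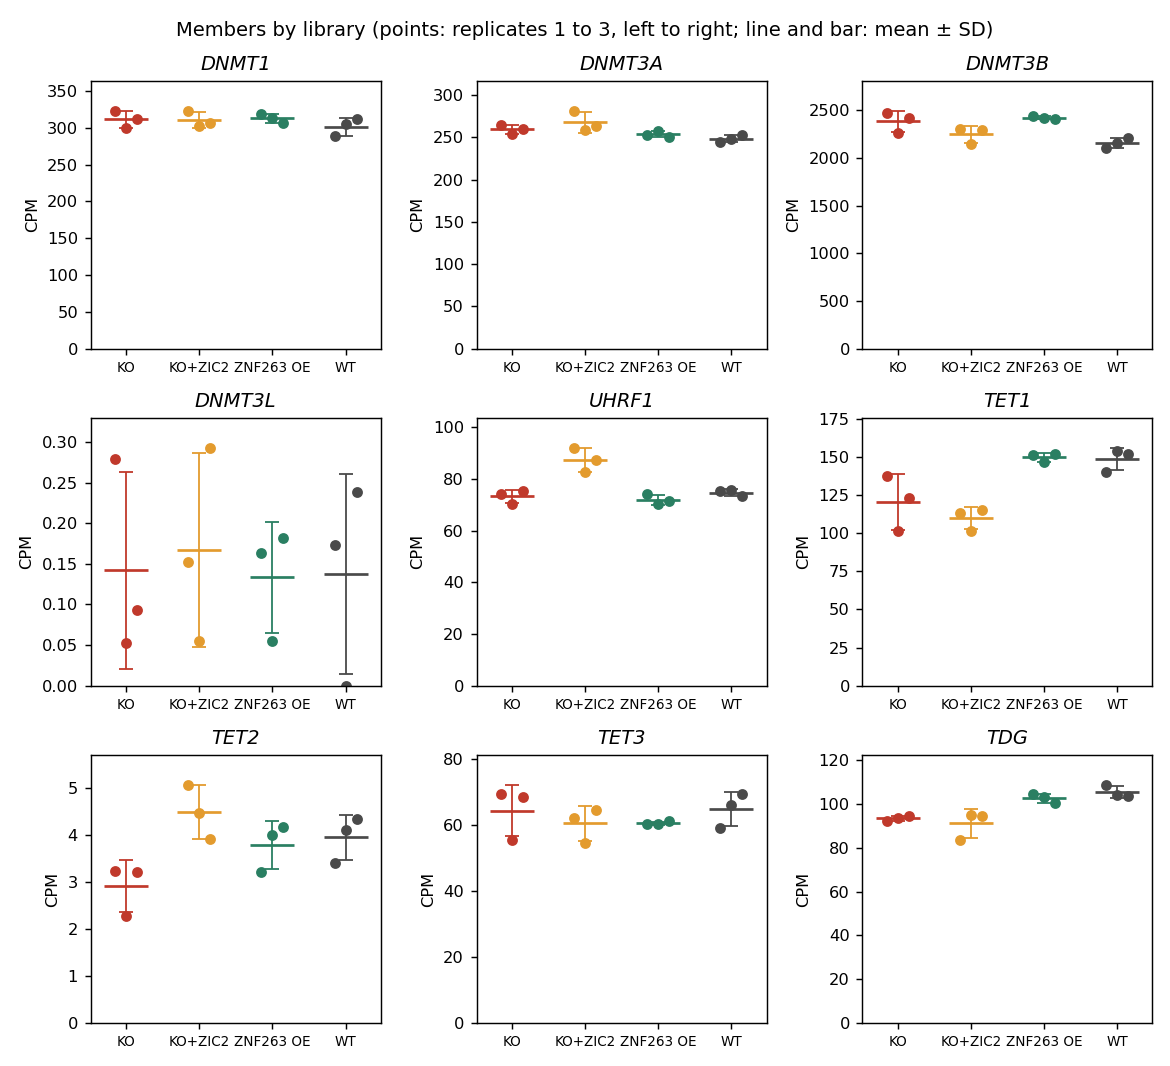
Level of each member in every library, in CPM on linear axes that start at 0, with each group's mean and SD. TET1 and TDG sit lower in both knockout groups than in OE and WT libraries, UHRF1 is highest in the 3 KO+ZIC2 libraries, and DNMT3L is at or under 0.293 CPM in all 12 libraries.

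The KO and WT groups were compared first. Against WT cells, KO cells had more DNMT3B and less TET1, TET2 and TDG transcript, while DNMT1, DNMT3A, UHRF1 and TET3 did not pass the test. Of the 8 members with enough counts to be tested, 1 was called higher and 3 were called lower in edgeR's quasi-likelihood test, where a call is a Benjamini-Hochberg adjusted p under 0.05 over all 15437 genes tested. Of all genes tested, 20% were called higher and 18.5% lower in this comparison, 38.6% in all. The median log2 fold change was -0.01 over the 8 members and -0.01 over all genes tested.

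Among the de novo enzymes, DNMT3B (hg19 chr20:31350191-31397162, plus strand) had 2476, 2264 and 2416 CPM in the KO libraries, against 2109, 2157 and 2211 CPM in the WT libraries. All 3 KO libraries lay above all 3 WT libraries. The fold change was 1.11 with a 95% interval of 1.05 to 1.16 (log2 0.14, SE 0.04, adjusted p 0.00244). DNMT3A (hg19 chr2:25455830-25565459, minus strand) had 264, 253 and 260.3 CPM in KO libraries, against 244, 249 and 253.0 CPM in WT libraries. The lowest KO library lay just above the highest WT library, and the fold change of 1.04 (0.990 to 1.10) did not pass the test at an adjusted p of 0.201. In all, the libraries of 5 of the 8 members did not overlap between KO and WT, as was true of 46.7% of all genes tested.

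DNMT3L (hg19 chr21:45666222-45682099, minus strand) was too low to test. It had 12, 1 and 2 counts in the KO, 3, 1 and 5 in the KO+ZIC2, and 3, 1 and 4 in the OE libraries, against 3, 0 and 5 counts in the WT libraries. Pooled over each group this was 0.180 CPM (95% exact Poisson interval 0.101 to 0.297) in KO, 0.164 CPM (0.0749 to 0.311) in KO+ZIC2 and 0.137 CPM (0.0591 to 0.270) in OE cells, against 0.140 CPM (0.0605 to 0.276) in WT cells. These intervals cover counting error only, all of them overlap, and no difference was detectable at this depth. DNMT3L shares exon bases with the uncharacterised locus LOC105372833, which had 4 counts in all libraries together, and no other member shares exon bases with another gene of the table.

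Neither maintenance factor passed the test in KO cells. DNMT1 (hg19 chr19:10244020-10305811, minus strand) had 323, 300.2 and 312 CPM in KO libraries, against 288, 305 and 312 CPM in WT libraries, and the groups overlapped. The interval of its fold change ran from 0.977 to 1.09 around 1.03 (adjusted p 0.356). UHRF1 (hg19 chr19:4903092-4962165, plus strand) had 74.3, 70.3 and 75.2 CPM in KO libraries, against 75.3, 75.6 and 73.3 CPM in WT libraries. Its groups overlapped too, and the fold change of 0.982 had an interval of 0.920 to 1.05 (adjusted p 0.694).

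Among the erasers, TET1 (hg19 chr10:70320117-70454239, plus strand) had 137, 101 and 123 CPM in KO libraries, against 140.5, 154 and 152 CPM in WT libraries. The KO libraries were all below the WT libraries but spread widely, with a coefficient of variation of 15.1% in KO and 4.88% in WT cells. TET1 fell by 0.29 on the log2 scale in KO cells (SE 0.07, adjusted p 0.00198), a fold change of 0.816 (0.738 to 0.902). TDG (hg19 chr12:104359593-104382656, plus strand) had 92.1, 93.8 and 94.3 CPM in KO libraries, against 109, 104 and 104 CPM in WT libraries. Here the KO libraries were tight and all below WT, and TDG fell by 0.18 on the log2 scale (SE 0.05, adjusted p 0.00372), a fold change of 0.885 (0.830 to 0.945).

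TET2 (hg19 chr4:106067032-106200960, plus strand) is the least abundant TET gene here. It had 3.24, 2.27 and 3.22 CPM in KO libraries, against 3.41, 4.11 and 4.33 CPM in WT libraries. The groups did not overlap but came close, and TET2 fell by 0.41 on the log2 scale in KO cells (SE 0.16, adjusted p 0.0423). That call was lost without KO replicate 2 (adjusted p 0.142), without WT replicate 2 (0.107) and without WT replicate 3 (0.166), and the DESeq2 test gave 0.0972. It was also lost with only the KO and WT groups in the fit (0.0641) and, in an alternative chosen after seeing the data, with the libraries of the most negative length trend left out (0.0697). TET3 (hg19 chr2:74213531-74335302, plus strand) had 69.2, 55.3 and 68.3 CPM in KO libraries, against 59.1, 66.0 and 69.3 CPM in WT libraries. The groups overlapped, and the fold change of 0.997 had an interval of 0.900 to 1.10 (adjusted p 0.972).

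The 3 members that fell are the 3 of lowest GC content, at 41.0% for TET1, 43.0% for TET2 and 43.6% for TDG, against 53.1% to 58.6% for the others. Over all genes tested, KO against WT fold changes followed GC content, with a rank correlation of 0.43 across genes, a median log2 fold change of -0.15 in the fifth of genes with the lowest GC content and of 0.17 in the fifth with the highest. With log2 fold changes corrected for GC content and gene length, DNMT3B stayed called higher (0.11, adjusted p 0.00114), while TET1 (-0.09, adjusted p 0.121), TDG (-0.07, adjusted p 0.165) and TET2 (-0.24, adjusted p 0.231) were not called. That left 1 of 8 members called, beside 29.3% of all genes. A correction of this kind removes any shift shared by genes of like GC content, whatever its source, and which of the 2 sets of values is nearer to the cells was not tested.

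**Figure D2:**
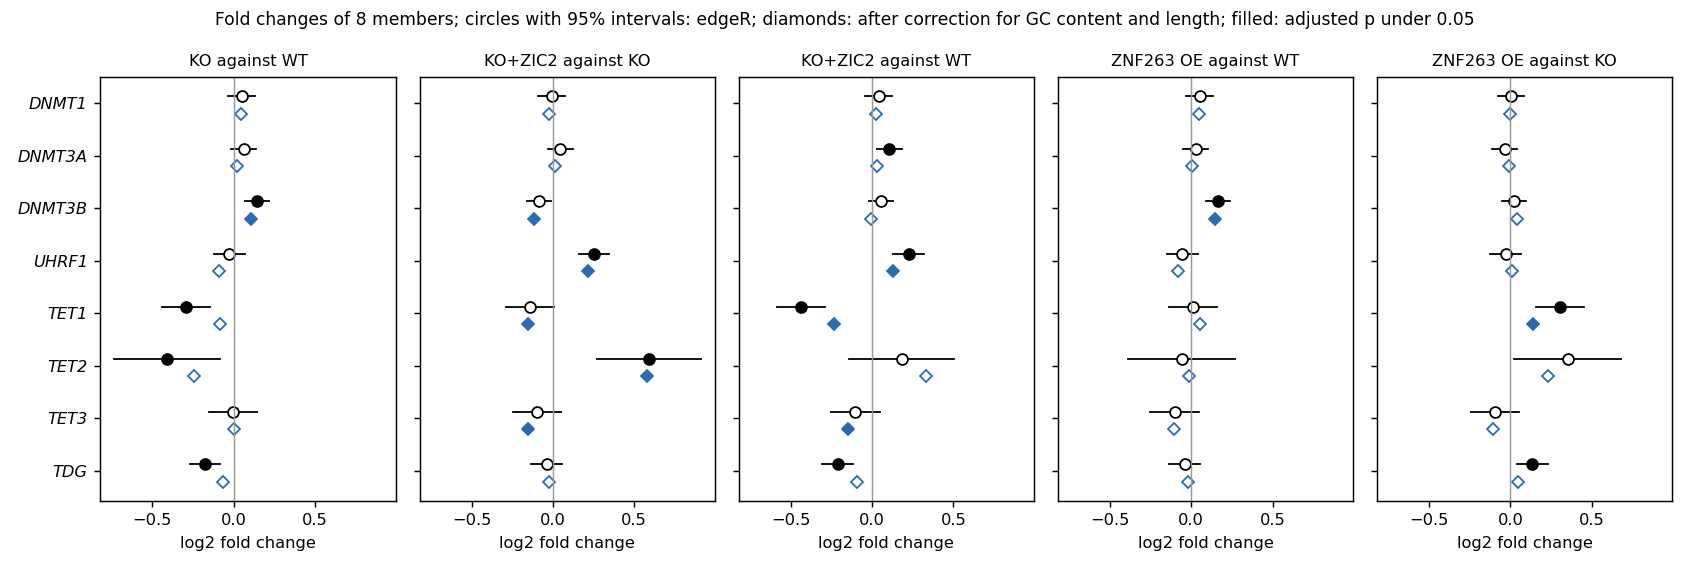
Log2 fold changes of the 8 tested members in 5 comparisons, with 95% intervals (circles), and after correction for GC content and gene length (diamonds); filled symbols have an adjusted p under 0.05. DNMT3B is filled both ways in KO and in OE cells against WT, and TET1 and TDG move toward 0 after the correction in KO cells against WT.

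UHRF1 and TET2 were higher in knockout cells that overexpressed ZIC2. Against KO cells, 2 of the 8 members were called higher in KO+ZIC2 cells and 0 lower, where 4.99% of all genes tested were called higher and 3.35% lower, 8.34% in all. The libraries of 2 members did not overlap between these groups, as was true of 21.8% of all genes. At an unadjusted p under 0.05, 3 members differed, the third being DNMT3B, and DESeq2 called 1. The median log2 fold change was -0.02 over the members and -0.00 over all genes.

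UHRF1 had 92.0, 82.8 and 87.3 CPM in KO+ZIC2 libraries, against 74.3, 70.3 and 75.2 CPM in KO libraries. Every KO+ZIC2 library was above every KO library, and above every OE and WT library as well. The fold change over KO was 1.19 with an interval of 1.12 to 1.27 (log2 0.25, SE 0.05, adjusted p 0.000529), it was called without any 1 of the 6 libraries, and it was 0.22 after the GC and length correction (adjusted p 9.41e-05). DNMT1, its partner in maintenance, had 323, 302 and 306 CPM in KO+ZIC2 libraries, within the range of the KO libraries, with a fold change of 0.995 (0.940 to 1.05, adjusted p 0.949).

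TET2 had 5.07, 4.47 and 3.92 CPM in KO+ZIC2 libraries, against 3.24, 2.27 and 3.22 CPM in KO libraries. The groups did not overlap. The fold change of 1.51 (1.21 to 1.88) was the largest of any member in any comparison (log2 0.59, SE 0.15, adjusted p 0.0158), and it was 0.58 after the GC and length correction (adjusted p 0.00628). It rests on 100, 81 and 67 counts in KO+ZIC2 libraries, against 139, 43 and 69 counts in KO libraries. Without KO+ZIC2 replicate 1 it was no longer called (log2 0.49, adjusted p 0.126), nor in the DESeq2 test (adjusted p 0.0520), nor with the libraries of the most negative length trend left out (log2 0.48, adjusted p 0.0705).

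The other members overlapped between KO+ZIC2 and KO cells. DNMT3B had 2305, 2143 and 2291 CPM in KO+ZIC2 libraries, against 2476, 2264 and 2416 CPM in KO libraries (log2 fold change -0.09, adjusted p 0.153). TET1 had 114, 101 and 115 CPM in KO+ZIC2 libraries, against 137, 101 and 123 CPM in KO libraries (-0.14, adjusted p 0.276). TET3 had 62.1, 54.6 and 64.6 CPM in KO+ZIC2 libraries, against 69.2, 55.3 and 68.3 CPM in KO libraries (-0.10, adjusted p 0.504). KO replicate 2, which has the most negative length trend, was the lowest KO library for these 3 genes and for 7 of the 8 tested members in all, TDG being the exception. Without it, the log2 fold changes were -0.12 for DNMT3B (adjusted p 0.00797), -0.25 for TET1 (adjusted p 0.000392) and -0.19 for TET3 (adjusted p 0.0255), and after the GC and length correction, under which 5 members and 12.3% of all genes were called, all 3 were called lower too, at -0.11 (adjusted p 0.00129), -0.15 (adjusted p 0.0171) and -0.15 (adjusted p 0.0187) in that order. DNMT3A (fold change 1.03, interval 0.978 to 1.09) and TDG (0.975, interval 0.913 to 1.04) did not pass the test either way.

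**Figure D3:**
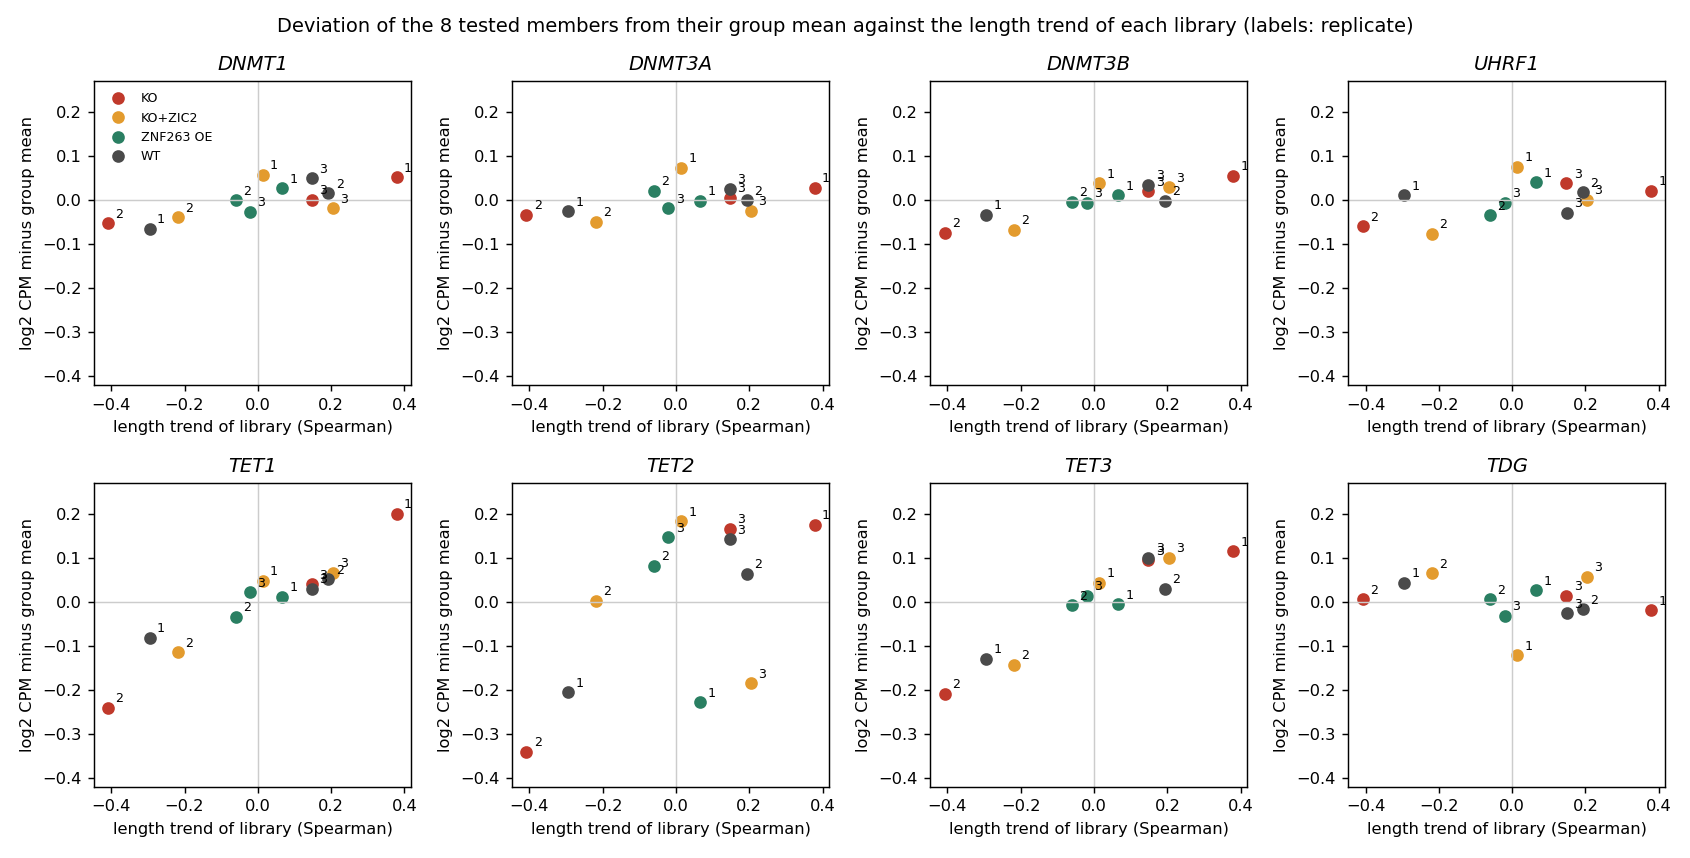
Deviation of the 8 tested members from their group mean (log2 CPM) in each library, plotted against that library's rank correlation between gene length and deviation over all genes; numbers are replicates. KO replicate 2, KO+ZIC2 replicate 2 and WT replicate 1, the libraries with the most negative trend of their groups, are all the lowest of their group for 5 members of 4630 to 11387 bases of exon (DNMT1, DNMT3A, DNMT3B, TET1 and TET3). TET2, the longest at 15321 bases, is lowest in 2 of the 3, UHRF1 (5197 bases) in 2 and TDG (3244 bases) in none.

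Set against WT, KO+ZIC2 cells had less TET1 and TDG and more UHRF1 and DNMT3A. This comparison shares its WT libraries with the one of KO cells and its KO+ZIC2 libraries with the one above, so the values are given side by side and not as separate evidence. It called 2 members higher and 2 lower, where 20.3% of all genes tested were called higher and 17.3% lower, 37.6% in all. The libraries of 4 members did not overlap, as was true of 47.3% of all genes, and after the GC and length correction 3 members were called, beside 28.9% of all genes. TET1 had 114, 101 and 115 CPM in KO+ZIC2 libraries, against 140.5, 154 and 152 CPM in WT libraries, without overlap. Its fold change was 0.739 (0.667 to 0.820; log2 -0.44, SE 0.07, adjusted p 5.45e-05), and it stayed called after the GC and length correction (-0.24, adjusted p 7.50e-05). TDG had 83.6, 95.1 and 94.6 CPM in KO+ZIC2 libraries, against 109, 104 and 104 CPM in WT libraries, also without overlap. It fell by 0.21 on the log2 scale (SE 0.05, adjusted p 0.000949), and after the correction it was at -0.09 (adjusted p 0.0582).

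UHRF1 was higher in KO+ZIC2 than in WT cells by 0.23 on the log2 scale (SE 0.05, adjusted p 0.000472), and by 0.13 after the correction (adjusted p 0.0142). DNMT3A had 281, 258 and 263 CPM in KO+ZIC2 libraries, against 244, 249 and 253 CPM in WT libraries. The groups did not overlap, with a fold change of 1.08 (1.02 to 1.14; log2 0.11, SE 0.04, adjusted p 0.0281). That call was lost without KO+ZIC2 replicate 1 (adjusted p 0.184) and without WT replicate 1 (0.123), 2 (0.0956) or 3 (0.0545), and after the GC and length correction the log2 fold change was 0.03 (adjusted p 0.469). DNMT3B, called higher in KO cells, did not pass the test in KO+ZIC2 cells against WT (fold change 1.04, interval 0.989 to 1.09, adjusted p 0.219). TET2, called lower in KO cells, did not pass it either (fold change 1.13, interval 0.907 to 1.42, adjusted p 0.388). TET3 overlapped WT (log2 fold change -0.10, adjusted p 0.290) and was called lower only after the correction (-0.15, adjusted p 0.0123).

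Cells that overexpressed ZNF263 had more DNMT3B than WT cells, and the other 7 tested members did not pass the test. DNMT3B was the 1 member called higher in OE cells, 0 were called lower in edgeR's test, 1 differed at an unadjusted p under 0.05, DESeq2 also called 1, and 0.317% of all genes tested were called higher and 0.447% lower, 0.764% in all. The libraries of 1 member did not overlap between OE and WT, as was true of 19.4% of all genes, and after the GC and length correction 1 member was called, beside 1.62% of all genes. DNMT3B had 2439.7, 2415 and 2411 CPM in OE libraries, against 2109, 2157 and 2211 CPM in WT libraries. The OE libraries lay close together and all above WT, with a fold change of 1.12 (1.07 to 1.18; log2 0.17, SE 0.04, adjusted p 0.0218), and 0.15 on the log2 scale after the GC and length correction (adjusted p 0.000341). With any 1 of 5 libraries left out the adjusted p was over 0.05, from 0.0992 to 0.115, and only without WT replicate 3 was the gene still called (0.0461), while the log2 fold change stayed between 0.15 and 0.18.

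Of the other members, TET1 had 151, 146 and 152 CPM in OE libraries, against 140.5, 154 and 152 CPM in WT libraries, with a fold change of 1.01 (0.911 to 1.11). TDG had 104, 103 and 100.3 CPM in OE libraries, against 109, 104 and 104 CPM in WT libraries (fold change 0.973, interval 0.911 to 1.04). TET2 had 3.22, 3.99 and 4.18 CPM in OE libraries, against 3.41, 4.11 and 4.33 CPM in WT libraries (0.960, interval 0.763 to 1.21). Each of these groups overlapped. The remaining fold changes in OE cells were 1.04 for DNMT1 (0.979 to 1.10), 1.02 for DNMT3A (0.966 to 1.08), 0.963 for UHRF1 (0.901 to 1.03) and 0.932 for TET3 (0.839 to 1.04).

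Overexpression and knockout of ZNF263 were also compared with each other, which is the test of whether their effects against the same WT libraries differ. TET1 and TDG were called higher in OE than in KO cells and 0 members were called lower, where 17.5% of all genes tested were called higher and 19% lower, 36.5% in all. The libraries of 2 members did not overlap between OE and KO, as was true of 47.3% of all genes, and after the GC and length correction 1 member was called, beside 32.8% of all genes. TET1 had 151, 146 and 152 CPM in OE libraries, against 137, 101 and 123 CPM in KO libraries, without overlap. It differed by 0.30 on the log2 scale (SE 0.07, adjusted p 0.00153), a fold change of 1.23 (1.12 to 1.37), and by 0.14 after the GC and length correction (adjusted p 0.00851). TDG had 104, 103 and 100.3 CPM in OE libraries, against 92.1, 93.8 and 94.3 CPM in KO libraries, also without overlap, and differed by 0.14 (SE 0.05, adjusted p 0.0224). Without KO replicate 1 (adjusted p 0.0538), OE replicate 1 (0.0872) or OE replicate 2 (0.0630) the TDG call was lost, and after the correction the log2 difference was 0.05 (adjusted p 0.320). TET2 was 0.35 higher in OE than in KO cells on the log2 scale and did not pass the test (adjusted p 0.0864), except with KO replicate 1 thinned to the median depth (log2 0.47, adjusted p 0.0307). DNMT3B, higher than WT in both groups, differed between OE and KO cells by a fold change of 1.02 with an interval of 0.965 to 1.07 (adjusted p 0.679). TET3 had 60.2, 60.1 and 61.0 CPM in OE libraries, against 69.2, 55.3 and 68.3 CPM in KO libraries, with a log2 difference of -0.10 (adjusted p 0.310) that became -0.19 without KO replicate 2 (adjusted p 0.00867).

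The balance between members was then taken within each library, from CPM per kb, so that depth cancels. TET1 made up 68.3% ± 1.10 of the summed TET transcripts in KO, 67.2% ± 0.314 in KO+ZIC2 and 73.8% ± 0.380 in OE cells, against 72.3% ± 0.889 in WT cells (SD, n = 3 each). Both knockout groups lay below OE and WT without overlap. DNMT3B made up 83.8% ± 0.244 of the summed DNMT1, DNMT3A and DNMT3B transcripts in KO, 82.8% ± 0.429 in KO+ZIC2 and 84.1% ± 0.141 in OE cells, against 82.9% ± 0.124 in WT cells. KO and OE libraries were above the WT libraries, and KO+ZIC2 libraries overlapped them. The ratio of DNMT3B to TET1 was 41.4 ± 4.54 in KO, 42.3 ± 1.27 in KO+ZIC2 and 33.5 ± 0.675 in OE cells, against 30.1 ± 1.05 in WT cells. The ratio of UHRF1 to DNMT1 was 0.296 ± 0.00664 in KO+ZIC2 cells, against 0.247 ± 0.00594 in KO cells, and it was 0.242 ± 0.00498 in OE cells, against 0.261 ± 0.0139 in WT cells. Each pair of these groups whose libraries did not overlap gave a two-sided exact permutation p of 0.1, the smallest that 3 libraries against 3 allow, so none of these ratios could pass 0.05. The ratios were not corrected for GC content or length, in which TET1 (41.0% GC) differs from TET3 (55.5%) and DNMT3B (55.1%).

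**Figure D4:**
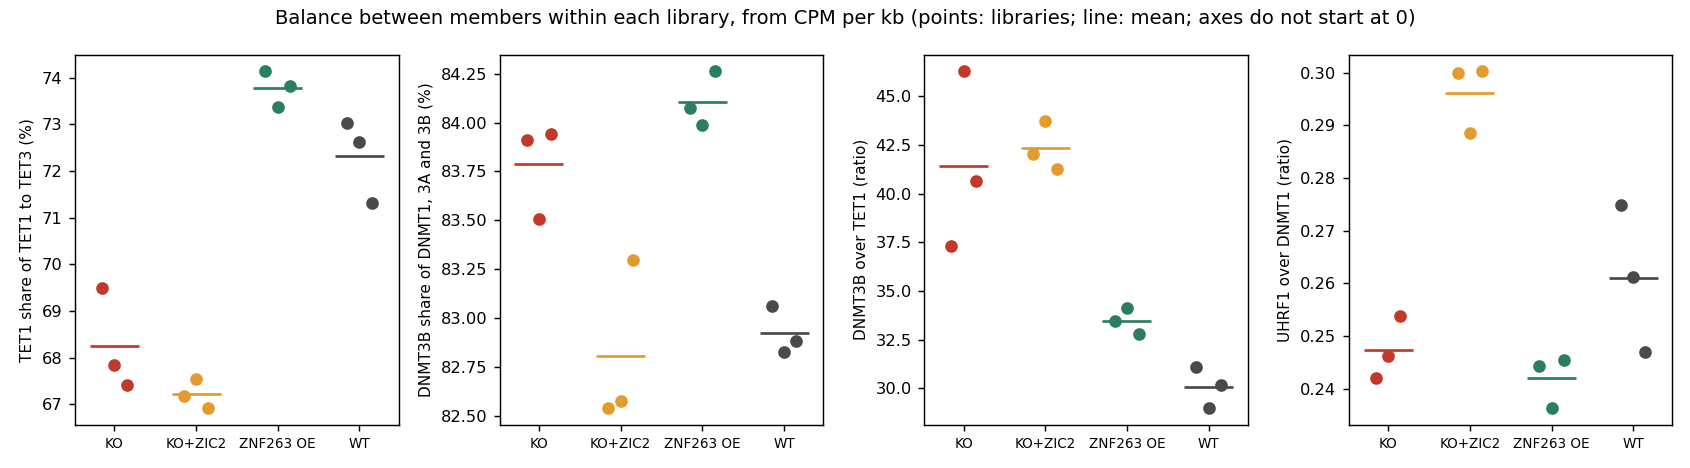
Within-library shares and ratios of members, computed from CPM per kb; points are libraries, lines are group means, and the axes do not start at 0. The TET1 share is lowest in KO and KO+ZIC2 libraries, the DNMT3B share is highest in KO and OE libraries, and the ratio of UHRF1 to DNMT1 is highest in KO+ZIC2 libraries.

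The members that moved most over the 4 groups were TET2, TET1 and UHRF1, whose group means on the log2 CPM scale spanned 0.62, 0.45 and 0.28. The genes with the most similar pattern over the 12 libraries, by Pearson correlation of log2 CPM, were SUN2 (0.94), GREB1 (0.92) and MPP2 (0.90) for TET2. For TET1 they were MPDZ (0.98), UNC5D (0.98) and TTI1 (0.98), and for UHRF1 they were CLDN19 (0.96), RHOU (0.95) and TIMP3 (0.95). The points share their groups, depth and length trend, and the values only describe likeness among 15437 genes.

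Related genes were described by list, and each count is to be read against the share of all genes tested that was called: 38.6% in KO cells against WT (29.3% after the GC and length correction), 8.34% in KO+ZIC2 cells against KO (12.3%), 37.6% in KO+ZIC2 cells against WT (28.9%) and 0.764% in OE cells against WT (1.62%). In KO cells against WT, the partners of maintenance and de novo methylation had 2 called higher and 3 lower of 16 tested, with a median log2 fold change of -0.06 beside -0.01 for all genes, and 4 higher and 4 lower with a median of 0.03 after the correction. TRIM28, the corepressor that recruits the methylation machinery through zinc finger proteins, averaged 1521 CPM in KO libraries, against 1186 CPM in WT libraries (log2 0.36, adjusted p 1.25e-08). UHRF2, the paralog of UHRF1, fell by 0.33 (adjusted p 2.56e-05), and QSER1, known to protect sites from de novo methylation together with TET1, fell by 0.36 (adjusted p 2.70e-05). Both stayed called after the GC and length correction, at -0.19 and -0.15. In KO+ZIC2 cells against WT the same list had 3 higher and 8 lower of 16, with a median of -0.14, but 3 and 3 after the correction. Against KO cells, 0 of the 16 were called in KO+ZIC2 cells in edgeR's test, 4 had an unadjusted p under 0.05 and DESeq2 called 0.

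Of 10 TET partners and CXXC proteins, 4 were called higher and 2 lower in KO cells against WT (median 0.05), and 5 higher and 3 lower after the GC and length correction. OGT, the glycosyltransferase that binds TET proteins, fell by 0.27 (adjusted p 1.27e-05), and SALL4, a pluripotency factor, was 0.20 higher (adjusted p 0.000107). In KO+ZIC2 cells against KO, CXXC5 was called higher (log2 0.30, adjusted p 0.000149) and IDH2 lower (-0.27, adjusted p 0.000599); IDH2 makes the TET cosubstrate 2-oxoglutarate in mitochondria. A list of 14 base excision repair and deamination genes, not all of which act after TDG, had 5 called higher and 2 lower in KO cells against WT (median 0.07). After the correction the list had 4 higher and 2 lower (median -0.02). Its leading members were the stress-induced GADD45 genes, which have been linked to active demethylation. GADD45B averaged 7.95 ± 0.599 CPM in KO libraries, against 4.27 ± 0.719 CPM in WT libraries (log2 0.90, adjusted p 4.52e-06). GADD45A and GADD45G were 0.49 and 0.88 higher (adjusted p 0.000109 and 0.000421). MBD4, the glycosylase that acts on mismatches at CpG beside TDG, fell by 0.16 (adjusted p 0.00806), a call that was lost after the correction (-0.08, adjusted p 0.147).

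Among 9 readers of methylated CpG, MBD3 was called higher in KO cells against WT (186 ± 9.95 CPM in KO and 130 ± 1.76 CPM in WT libraries, log2 0.52, adjusted p 1.30e-09). ZBTB33, which encodes Kaiso, was the 1 reader called lower (-0.48, adjusted p 2.37e-07), and after the correction 2 readers were called higher and 2 lower. Of 12 tested genes of the cycle that supplies the methyl donor, 3 were called higher and 6 lower in KO cells (median -0.11), and 2 higher and 4 lower after the GC and length correction (median -0.02). AHCY, which removes the inhibitory product S-adenosylhomocysteine, was 0.25 higher (adjusted p 5.06e-06), and MAT2A, which makes S-adenosylmethionine, fell by 0.17 (adjusted p 0.000791). Of 20 germline genes that promoter methylation is known to silence, 8 were high enough to test, all at a few CPM or less, so those counts cover only the detected genes. In KO cells 3 were called higher and 1 lower against WT, and 3 higher and 0 lower after the correction, the lower one being SYCP1 (log2 -1.04, adjusted p 0.0287, and -0.84, adjusted p 0.0925, after the correction). PIWIL2 averaged 1.71 ± 0.413 CPM in KO libraries, against 0.591 ± 0.0735 CPM in WT libraries (log2 1.48, adjusted p 0.000673). SYCP1 averaged 2.27 ± 0.569 CPM in KO+ZIC2 libraries, against 0.373 ± 0.176 CPM in KO libraries (log2 2.60, adjusted p 1.46e-06).

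Because DNMT1, UHRF1 and their partners follow DNA replication, 20 genes of S phase and proliferation were set beside them. In KO cells against WT, 6 were called higher and 3 lower, with a median of -0.01, and 4 higher and 4 lower after the GC and length correction. In KO+ZIC2 cells against KO, where UHRF1 was higher, 0 were called in edgeR's test, 5 had an unadjusted p under 0.05 and DESeq2 called 0, while after the GC and length correction 4 were called higher and 0 lower (median 0.00). MCM5, a subunit of the replicative helicase, was 0.33 higher in KO cells (adjusted p 3.47e-07), and TOP2A, a topoisomerase of dividing cells, fell by 0.49 (adjusted p 1.57e-08). DNMT3B lies in band 20q11.21, which is often gained in human embryonic stem cell lines, so 21 other genes of the band were checked. Of the 18 tested, 2 were called higher and 2 lower in KO cells against WT (median -0.03), and 0 in OE cells against WT in edgeR's test, where 1 had an unadjusted p under 0.05 and DESeq2 called 0 (median 0.02). In KO+ZIC2 cells 5 were called higher and 0 lower against WT (median 0.01), and 2 higher and 1 lower against KO (median 0.04). The 2 higher against KO were low: FOXS1 (0.777 CPM in KO+ZIC2, 0.0953 CPM in KO libraries) and MYLK2 (1.13 and 0.413 CPM). FOXS1, also among those called against WT, was at or under 0.187 CPM in every library outside KO+ZIC2. It could be tested only through the group where it is high, so its calls are not a result about the band. ID1 (log2 0.50, adjusted p 8.18e-08) and BCL2L1 (log2 0.34, adjusted p 1.96e-05) were the 2 called higher in KO cells. Over the 8 lists together, 0 of 107 tested genes were called in OE cells against WT in edgeR's test, 13 had an unadjusted p under 0.05, and DESeq2 called 0.

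**Figure D5:**
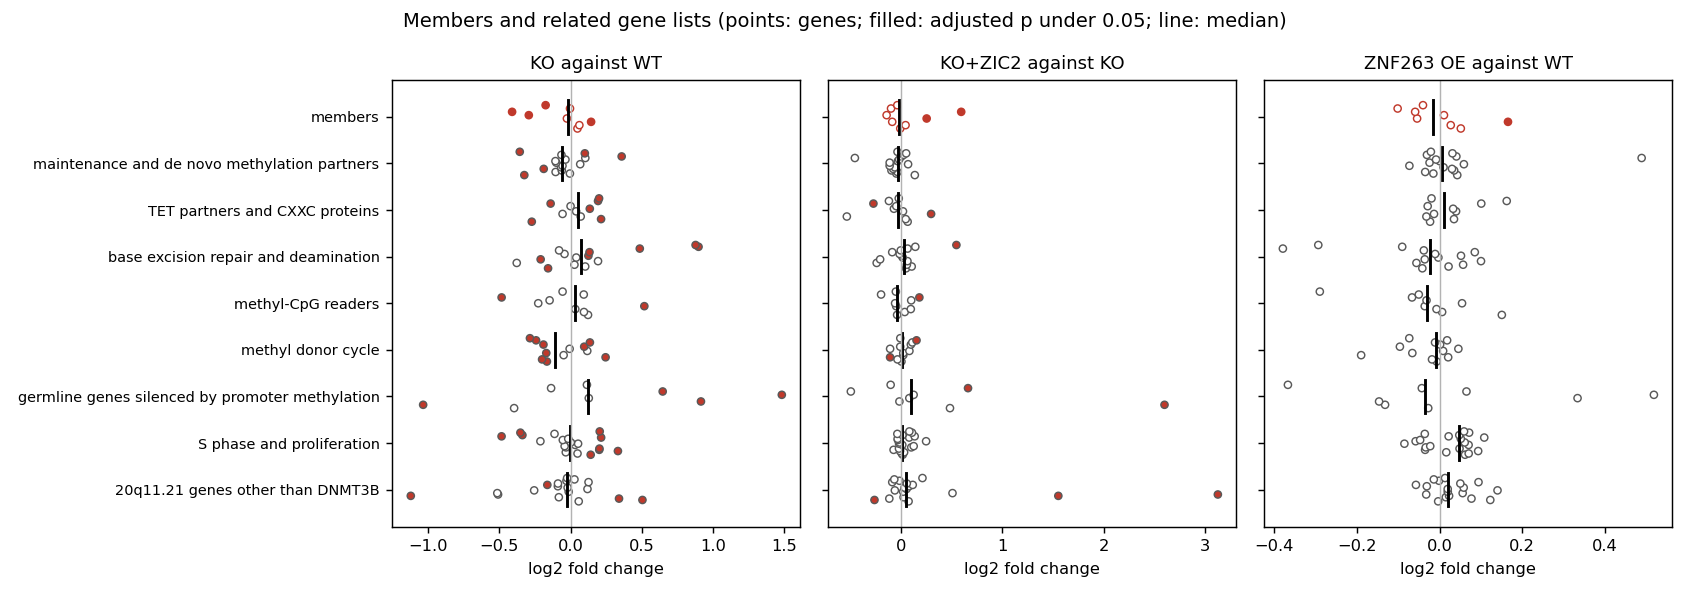
Log2 fold change of each tested gene in the members and in 8 related lists, for KO cells against WT, KO+ZIC2 cells against KO and OE cells against WT; filled points have an adjusted p under 0.05 and the line is the median. The GADD45 genes lead the repair list in KO cells, and DNMT3B is the 1 filled point in the comparison of OE with WT cells.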

How the data were processed

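RNA was measured by poly(A) RNA-seq in 12 libraries of H1 cells, 3 per group. Libraries were prepared with a NEBNext Ultra II RNA kit after TRIzol extraction and bead selection of polyadenylated RNA, per the labels' protocols; that kit does not mark the strand. The authors deposited raw read counts per gene in one table on hg19, and the submitters' processing notes name STAR, featureCounts and DESeq2. Their versions and settings are not given in the sources used here.

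Counts were used as deposited. Library totals ran from 17175183 to 43464609 counts, and 3461 of 27130 genes had no count. Genes were kept by edgeR's filterByExpr (15437 tested, 8 of the 9 members), scaled by TMM and tested with edgeR 4.0.16 in R 4.3.3 by its quasi-likelihood test with group as the only term over all 12 libraries (8 residual degrees of freedom). All p-values were adjusted over the 15437 genes by the Benjamini-Hochberg method. An SE is the log2 fold change divided by the square root of F, and 95% intervals use the t distribution at the fit's median degrees of freedom. CPM values are TMM-scaled, and CPM per kb divides them by the exon length in the table. Fold changes corrected for GC content and length used natural splines with 5 degrees of freedom, and 95.2% of tested genes had a GC value. In the motif search, both strands of the 250 bases before the outermost start listed for each gene in the RefSeq promoter table were read. DESeq2 1.42.0 was an alternative. The scripts were tested on simulated counts.

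All 9 members are described, and for each list and comparison up to 3 called genes with the smallest adjusted p could be named. MBD4 was named after its values were seen. The members, lists and tests were chosen with earlier results of these data known. The alternatives tried were other scaling, filters, tools and fits, a replicate block, the GC and length correction, thinning of KO replicate 1 to the median depth, and leaving out libraries. Protein sequences were not used here.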

Additional observations from a re-analysis of the deposited data

How the results depend on the processing

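TET2 rests on 43 to 139 counts a library, and DNMT3L had too few counts for a test at this depth. Of 786 single-gene values recomputed with 1 library left out, 712 kept direction and call, 54 lost the call, 4 gained one and 16 changed sign. Of 1121 under the other settings, 1063 kept both, 38 lost the call, 10 gained one and 10 changed sign. The cause of these changes was not tested.

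Of the members, KO+ZIC2 against KO had 2 called, with 1 in DESeq2, 4 without a filter on low counts, 5 after the GC and length correction, and 1 to 5 with 1 library left out. KO against WT had 4 called and 1 after the GC and length correction. OE against KO had 2 called, 1 after that correction, and 1 to 3 with 1 library left out. OE against WT had 1 called and 0 to 1 with 1 library left out; where edgeR gave 0, 1 or 2 had an unadjusted p under 0.05. Over all genes, OE against WT had 118 called, 220 without a filter, 431 with only these 2 groups in the fit, 250 after the correction and 50 to 77 with 1 library left out. An alternative chosen after seeing the data left out the library of the most negative length trend in the KO, KO+ZIC2 and WT groups, and it called 294 genes there. KO+ZIC2 against KO had 1288 genes called, 916 in DESeq2, 1598 without a filter, 1896 after the correction and 842 to 1476 with 1 library left out. KO against WT had 5951 genes called and 4522 after the correction. OE against KO had 5634 called, 5056 after the correction and 4542 to 5600 with 1 library left out. The member counts above are to be read beside these.

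The replicate numbers were not taken as pairs. Same-numbered libraries correlated between -0.110 and 0.112 in their deviations from group means, over 0.1 in 1 of 18 pairs, and differently numbered ones between -0.102 and 0.147. With the replicate number as a block, 5845 genes and 3 members were called in KO against WT (not TET2, at an adjusted p of 0.0526), 1244 and 2 in KO+ZIC2 against KO, 5691 and 4 in KO+ZIC2 against WT, 108 and 1 in OE against WT, and 5509 and 2 in OE against KO.

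The values that changed sign were all uncalled log2 fold changes near 0. After the GC and length correction they were TET3 in KO against WT (0.0019), DNMT3B in KO+ZIC2 against WT (-0.0077), ZIC2 in OE against WT (-0.027), and DNMT1 (-0.0027) and UHRF1 (0.012) in OE against KO. With the length-trend libraries left out they were UHRF1 (0.0049) and TET3 (0.024) in KO against WT, TET1 in OE against WT (-0.029), and DNMT1 (-0.024) and DNMT3B (-0.015) in OE against KO. With 1 library left out, values in KO against WT ran from -0.046 to 0.00044 for UHRF1 and from -0.070 to 0.084 for TET3. In KO+ZIC2 against KO they ran from -0.037 to 0.014 for DNMT1, from -0.070 to 0.023 for TDG and from -0.029 to 0.11 for ZNF263. In OE against KO they ran from -0.023 to 0.033 for DNMT1 and from -0.015 to 0.052 for DNMT3B, and in OE against WT from -0.028 to 0.037 for TET1 and from -0.15 to 0.042 for TET2.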
